A study of Mus musculus with 12 samples.

Results

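The costamere and dystrophin-sarcoglycan genes described here were 9 of the 21493 genes listed in each library: Dmd, Dag1, Sgca, Sgcb, Sgcd, Plec, Vcl, Tln2 and Itgb1. They were matched by gene symbol, and all 9 passed the filter on low counts. Poly-A RNA came from isolated adult heart muscle cells of mice aged 3 months that carried desmin (Des+/+) or lacked it (Des-/-), each with and without swimming exercise, in 4 groups of 3 libraries. The groups are Des+/+ non-swim, Des+/+ swim, Des-/- non-swim and Des-/- swim. All hearts were digested with the same perfused enzymes, trypsin and collagenase D, before the cells were collected. According to the study's methods the cells of several mice were pooled for a library, so a replicate is a pool, and mice were used whatever their sex. The strain background was 129SV. The methods also use the names Des+/+ and Des-/- for mice with an αMHC-GFP transgene, a green fluorescent protein driven by a cardiomyocyte promoter, and the labels do not say whether the mice sequenced here carried it.

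Costameres are protein lattices under the muscle cell membrane that tie the Z-discs of the outer myofibrils to the extracellular matrix. Separate attachments run side by side there: dystrophin joins cortical actin to dystroglycan, which binds laminin outside the cell and is held together with the sarcoglycans, while integrins reach actin through talin and vinculin. Desmin filaments run from the Z-discs to the costameres, where plectin and other linker proteins bind them. Inherited loss of dystrophin or of α-, β- or δ-sarcoglycan causes muscular dystrophy, often with disease of the heart muscle.

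Reads assigned to genes ranged from 4320819 to 12072443 per library. The targeted gene, Des, was at 2367 ± 1137 CPM (counts scaled to a common library total; SD, n = 3) in Des+/+ non-swim, 1273 ± 336 in Des+/+ swim, 59.5 ± 11.3 in Des-/- non-swim and 96.5 ± 4.71 in Des-/- swim libraries, as the labels state. Cardiomyocyte markers were present in every library, but their summed level differed: 14 sarcomere genes came to 61484 to 100512 CPM in Des+/+ non-swim, 33013 to 56365 in Des+/+ swim, 7966 to 30833 in Des-/- non-swim and 20135 to 31600 in Des-/- swim libraries. Replicate 3 of both Des-/- groups stood apart. Its 10 fibroblast markers summed to 36849 CPM without and 12601 CPM after swimming, where the other Des-/- libraries reached at most 9813 and 4891 CPM, and its 10 macrophage markers summed to 4273 and 1379 CPM, against at most 688 and 325 CPM in the others. In these bulk libraries, fewer cardiomyocytes and less RNA per cardiomyocyte cannot be told apart. The share of uniquely aligned reads that fell in no gene was 34.0 to 39.3% in Des+/+ non-swim, 45.9 to 50.4% in Des+/+ swim, 34.2 to 52.3% in Des-/- non-swim and 57.2 to 64.5% in Des-/- swim libraries.

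Between genes, levels were compared as CPM per kilobase of exon. The divisor was the annotated exon length of the whole gene (23801 bases for Dmd, with 14 transcripts). It was not the length of the transcripts present, and the order between genes depends on it. Itgb1 was the most abundant of the 9 transcripts in each group, at 270.3 ± 29.4 CPM per kilobase (SD, n = 3) in Des+/+ non-swim libraries, followed by Dag1 at 85.9 ± 10.7. The sarcoglycan pair Sgca (63.3 ± 17.3) and Sgcb (51.9 ± 4.81) came next in that group, then Vcl (28.9 ± 3.53), Plec (24.3 ± 4.34), Tln2 (7.35 ± 2.16), Dmd (4.80 ± 1.10) and Sgcd (1.23 ± 0.234). In this group neighbours in the order overlapped between Dag1 and Sgca, Sgca and Sgcb, and Vcl and Plec. Tln2, Dmd and Sgcd were the 3 lowest in each of the 4 groups, in that order, while the middle of the order shifted. Sgca stood at place 3 in both Des+/+ groups, at place 6 in Des-/- non-swim (12.2 ± 8.16) and at place 4 in Des-/- swim libraries (20.3 ± 2.99), although its libraries overlapped those of its lower neighbour in each group.

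The first comparison addressed the costamere transcripts of cells from mice that had not swum, with and without desmin. Without swimming, 5 of the 9 fell in Des-/- libraries and 0 rose. Sgca fell to 19.3% of its Des+/+ level, Sgcb to 40.2%, Dmd to 46.4%, Dag1 to 50.1% and Tln2 to 59.2%. The other 4, Sgcd, Vcl, Itgb1 and Plec, did not pass the test. A gene passed at an adjusted p under 0.05 in edgeR's quasi-likelihood test with Benjamini-Hochberg adjustment over all 13158 genes tested, of which 32.0% passed in this comparison and 18.0% passed and were lower. The median log2 change of the 9 genes was -0.998, beside 0.04 for all genes. With upper-quartile scaling, which moves the median of all genes to 0.14, the same number of members passed. That scaling turned the balance of all calls, from 1840 higher of 4210 to 2492 higher of 4526. For 7 of the 9 genes every Des-/- library lay outside the range of the Des+/+ libraries, as for 47.9% of all genes tested.

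**Figure D1:**
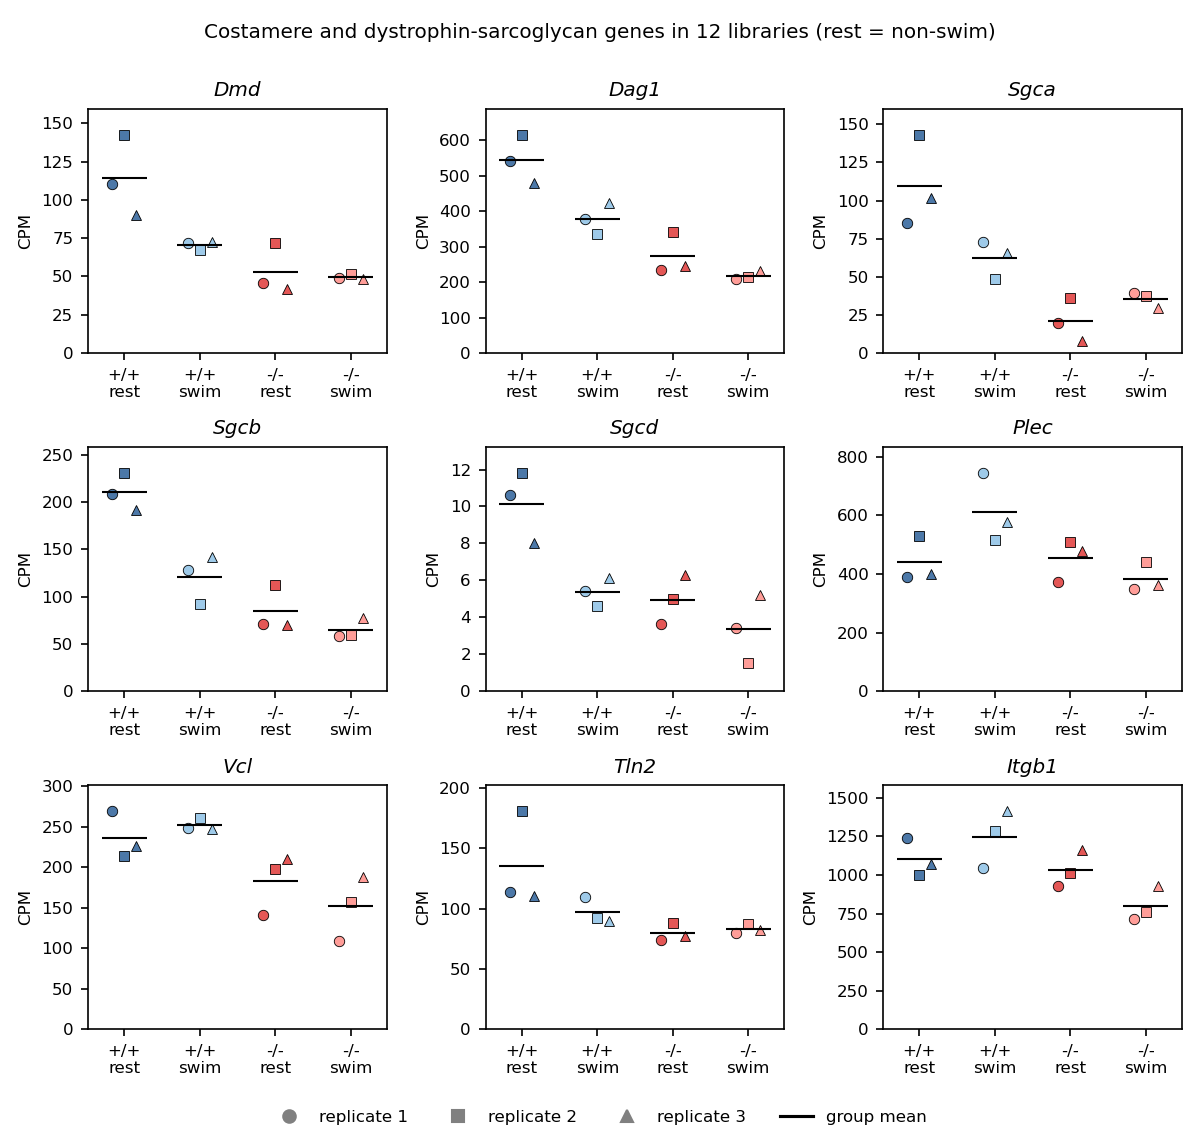
CPM of the 9 genes in each of the 12 libraries, 1 panel per gene with an axis from 0. Symbols mark the replicate number, the horizontal line is the mean of 3 libraries, and rest stands for non-swim. Dmd, Dag1, Sgca and Sgcb are highest in the 3 Des+/+ non-swim libraries, while Plec and Itgb1 overlap between the genotypes without swimming.

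Dmd (ENSMUSG00000045103; GRCm38 chromosome X, 82948870 to 85206141, plus strand) encodes dystrophin, the rod-shaped protein that joins actin to the membrane complex. Its level in replicates 1, 2 and 3 was 110.1, 142 and 90.3 CPM in Des+/+ and 45.7, 71.8 and 41.6 CPM in Des-/- non-swim libraries. The highest Des-/- library thus lay below the lowest Des+/+ library, and replicate 2 was the highest in both groups. The log2 change was -1.11 (SE 0.21, edgeR adjusted p 0.00291).

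Dag1 (ENSMUSG00000039952; chromosome 9, 108204634 to 108263958, minus strand) encodes both subunits of dystroglycan, the laminin receptor of the complex. It was at 543, 615 and 479 CPM in Des+/+ and at 233, 342 and 245 CPM in Des-/- non-swim libraries, without overlap. Its log2 change was -0.998 (SE 0.18, edgeR adjusted p 0.00207), close to that of Dmd.

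The sarcoglycans are membrane glycoproteins that form a subcomplex beside dystroglycan. Sgca (ENSMUSG00000001508; chromosome 11, 94962791 to 94976327, minus strand), α-sarcoglycan, is a striated muscle gene. Its 3 Des+/+ non-swim libraries held 85.0, 143 and 101 CPM and its 3 Des-/- non-swim libraries 19.5, 36.1 and 7.96 CPM. This was the largest change among the 9 genes, at -2.38 (SE 0.42, edgeR adjusted p 0.00214), and the lowest value belonged to replicate 3, the library with the highest fibroblast marker sum. Without replicate 3 of both Des-/- groups the change was -1.91 and still passed.

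Sgcb (ENSMUSG00000029156; chromosome 5, 73632749 to 73647790, minus strand), β-sarcoglycan, is expressed more widely. It was at 208, 231 and 192 CPM in Des+/+ and at 71.5, 112 and 70.1 CPM in Des-/- non-swim libraries. The groups were far apart relative to their spread, with a log2 change of -1.31 (SE 0.22, edgeR adjusted p 0.00156). Sgcd (ENSMUSG00000020354; chromosome 11, 46896253 to 47988969, minus strand), δ-sarcoglycan, was the least abundant of the 9, at 10.6, 11.8 and 8.03 CPM in Des+/+ and 3.61, 4.98 and 6.30 CPM in Des-/- non-swim libraries. Its groups did not overlap either, but its log2 change of -1.02 (SE 0.37) missed the threshold at an edgeR adjusted p of 0.0533. It passed with DESeq2, which called 36.6% of all genes, in a fit of the 6 non-swim libraries alone, and without replicate 3 of both Des-/- groups. The count of members that fell was 6 in each case.

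Of the 3 members of the integrin attachment, Tln2, Vcl and Itgb1, Tln2 had the largest fitted change without swimming. Tln2 (ENSMUSG00000052698; chromosome 9, 67217087 to 67559703, minus strand) encodes talin 2, the talin of mature heart muscle, which couples integrin tails to actin. It was at 114, 181 and 110.1 CPM in Des+/+ and at 74.1, 88.4 and 77.2 CPM in Des-/- non-swim libraries, where replicate 2 was the highest of each group. The log2 change was -0.76 (SE 0.18, edgeR adjusted p 0.00993). It was as small as -0.49 with replicate 2 of the Des+/+ non-swim group left out, and Tln2 was still called there.

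Vcl (ENSMUSG00000021823; chromosome 14, 20929398 to 21033676, plus strand) encodes vinculin, the actin-binding partner of talin. Its values were 269, 214 and 226 CPM in Des+/+ and 141, 197 and 210.1 CPM in Des-/- non-swim libraries. The nearest libraries of the groups differed by only a few CPM, and the log2 change of -0.37 (SE 0.21) had an edgeR adjusted p of 0.188. Vcl shares 2090 exon bases with Ap3m1 on the opposite strand. Counting in reverse-strand mode, as the study's methods state, would keep these genes apart.

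Itgb1 (ENSMUSG00000025809; chromosome 8, 128685654 to 128733200, plus strand), the β1 integrin subunit found in most cell types, was at 1236, 1002 and 1072 CPM in Des+/+ and at 929.5, 1009.5 and 1161 CPM in Des-/- non-swim libraries. Plec (ENSMUSG00000022565; chromosome 15, 76170974 to 76232574, minus strand), plectin, the linker that binds desmin to costameres and Z-discs, was at 388, 530.1 and 399.9 CPM in Des+/+ and at 374, 508 and 478 CPM in Des-/- non-swim libraries. Both overlapped between genotypes. Their log2 changes were -0.09 (SE 0.19, edgeR adjusted p 0.728) and 0.04 (SE 0.20, edgeR adjusted p 0.884). The sign of the first turned with upper-quartile scaling, and that of the second in 3 fits that left out a library. Plec shares 205 exon bases with Parp10 on the same strand, and reads there could be assigned to neither gene.

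The 5 genes that fell without swimming did so in each of the 12 fits that left out 1 library. The markers of other cells moved with genotype in the same libraries. In the non-swim comparison 13 of 14 sarcomere genes fell (median log2 change -1.93), while 10 of 10 fibroblast markers (median 1.52), 8 of 10 macrophage markers (median 2.73) and 8 of 10 genes that respond to cell isolation (median 1.71) rose. Of the 8 endothelial and the 8 mural cell markers, 0 and 0 passed in edgeR, 0 and 0 had an unadjusted p under 0.05 (43.7% of all genes), and 0 and 0 passed with DESeq2. No gene of the fibroblast or macrophage lists was at 0 in any group. The part of cell mix in the changes of the costamere genes was not tested.

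Promoter sequences, taken from RefSeq (GRCm38.p6), were available for 7 of the 9 genes in 9 windows of 250 bases upstream of a gene start. Tln2 and Plec were not among them. The window upstream of the first Dmd start and that of Vcl are shown because they held a CArG box, the element bound by serum response factor, which 1.47% of 32851 such windows held. Those of Sgca and Sgcb are shown as the genes with the largest decreases. Each is written 5′ to 3′ in the direction of the gene, and capitals mark matches to the motifs searched on both strands, which were the CArG box, the MEF2 site, CATTCC (the core bound by TEAD factors) and TATAAA.

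Dmd, chrX:82948620-82948869, plus strand: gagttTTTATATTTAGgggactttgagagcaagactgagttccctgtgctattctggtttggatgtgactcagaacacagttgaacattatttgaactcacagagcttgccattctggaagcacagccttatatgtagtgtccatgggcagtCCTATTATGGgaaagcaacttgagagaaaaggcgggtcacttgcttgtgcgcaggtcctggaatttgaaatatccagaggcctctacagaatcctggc
Vcl, chr14:20929148-20929397, plus strand: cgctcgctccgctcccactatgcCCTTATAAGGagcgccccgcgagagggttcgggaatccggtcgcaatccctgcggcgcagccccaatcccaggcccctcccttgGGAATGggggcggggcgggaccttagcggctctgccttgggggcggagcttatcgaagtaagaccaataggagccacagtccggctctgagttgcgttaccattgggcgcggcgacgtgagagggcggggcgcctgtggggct
Sgca, chr11:94976328-94976577, minus strand: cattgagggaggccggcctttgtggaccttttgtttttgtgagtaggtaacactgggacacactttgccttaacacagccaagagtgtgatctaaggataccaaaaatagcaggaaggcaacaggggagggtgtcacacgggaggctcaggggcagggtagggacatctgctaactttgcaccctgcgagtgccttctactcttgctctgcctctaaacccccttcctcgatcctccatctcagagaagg
Sgcb, chr5:73647738-73647987, minus strand: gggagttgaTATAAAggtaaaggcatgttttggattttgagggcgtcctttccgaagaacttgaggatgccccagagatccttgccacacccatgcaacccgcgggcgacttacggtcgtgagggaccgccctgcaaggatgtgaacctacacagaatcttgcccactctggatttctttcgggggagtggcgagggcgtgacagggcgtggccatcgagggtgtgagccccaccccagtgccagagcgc

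The CArG box of Dmd lay 98 to 89 bases upstream of the start, and that of Vcl 227 to 218 bases upstream. The Dmd window also held a MEF2 site 244 to 235 bases upstream, a motif in 2.92% of all windows, which overlapped a TATAAA at 245 to 240. CATTCC was found in the windows of Vcl, Sgcd and Itgb1 and in 12.6% of all windows, and TATAAA in those of Dmd and Sgcb and in 12.4% of all windows. The Sgca window, upstream of the gene with the largest change, and both Dag1 windows held none of the 4 motifs. The CArG box was thus found beside a gene that fell without swimming (Dmd) and a gene that did not pass there (Vcl). A match is a description of the letters and not evidence of binding.

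The second comparison asked how the genotypes differ after swimming. Here 3 of the 9 genes fell in Des-/- libraries and 0 rose, where 10.6% of all genes passed and 5.57% passed and were lower. Those 3 were Sgcb, at 54.0% of its Des+/+ level, Dag1 at 57.6% and Vcl at 60.1%. All 9 fitted changes were below 0, with a median of -0.68 beside 0.02 for all genes, and the libraries did not overlap for 8 of the 9, against 35.9% of all genes. The count depended on single libraries: it was 0 with replicate 1 or replicate 3 of the Des+/+ swim group, or replicate 1 or replicate 2 of the Des-/- swim group, left out, when 561, 74, 505 and 637 genes were called in all, against 1392 with all libraries. It was 5 with DESeq2, where 2332 genes or 17.8% of those with an adjusted p were called, 5 with replicate 3 of the Des-/- non-swim group left out (2142 genes called) and 4 without replicate 3 of both Des-/- groups (1579 genes called). The count of all genes called was thus higher in each of these 3 fits too.

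Dag1 was at 378, 335 and 422 CPM in Des+/+ and at 208, 216 and 230.5 CPM in Des-/- swim libraries, a log2 change of -0.79 (SE 0.18, edgeR adjusted p 0.0208). Sgcb was at 128, 92.7 and 142 CPM in Des+/+ and at 58.0, 59.7 and 77.7 CPM in Des-/- swim libraries, a change of -0.89 (SE 0.22, edgeR adjusted p 0.0287). Both were lower in Des-/- libraries with and without swimming.

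Vcl, which had not passed without swimming, was at 249, 261 and 248 CPM in Des+/+ and at 109, 157 and 189 CPM in Des-/- swim libraries. The Des+/+ libraries lay close together and above every Des-/- library. Its log2 change was -0.74 (SE 0.21, edgeR adjusted p 0.0441). Vcl was called in 4 of the 12 fits that left out 1 library, and Dag1 and Sgcb each in 8. The call of Vcl was also lost with upper-quartile scaling, without a filter on low counts and in a fit of the 6 swim libraries alone.

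Itgb1 and Plec narrowly missed the threshold. Itgb1 was at 1042, 1285 and 1411 CPM in Des+/+ and at 717, 761 and 925 CPM in Des-/- swim libraries (log2 change -0.64, SE 0.19, edgeR adjusted p 0.0504). Plec was at 745, 517 and 578 CPM in Des+/+ and at 349.7, 440.5 and 361 CPM in Des-/- swim libraries (-0.68, SE 0.20, edgeR adjusted p 0.0508). Their groups did not overlap, and both passed with DESeq2.

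Sgca and Dmd, which had fallen without swimming, did not pass after it. Dmd was at 71.9, 67.2 and 72.3 CPM in Des+/+ and at 48.9, 51.6 and 48.5 CPM in Des-/- swim libraries (-0.50, SE 0.21, edgeR adjusted p 0.131). Sgca was at 73.1, 48.3 and 65.5 CPM in Des+/+ and at 39.2, 37.2 and 29.4 CPM in Des-/- swim libraries (-0.82, SE 0.41, edgeR adjusted p 0.196). Neither gene overlapped between the groups. Both passed in a fit of the 6 swim libraries alone (edgeR adjusted p 0.0437 and 0.0444). Each passed in 0 of the 12 fits that left out 1 library, and neither passed with DESeq2. Tln2, at 109, 92.6 and 89.9 against 79.5, 87.0 and 82.5 CPM, had a change of -0.23 (edgeR adjusted p 0.421). Sgcd, at 5.43, 4.60 and 6.12 against 3.41, 1.53 and 5.23 CPM, overlapped between the groups (-0.64, edgeR adjusted p 0.285, and -1.08 to -0.32 over fits that left out 1 library).

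**Figure D2:**
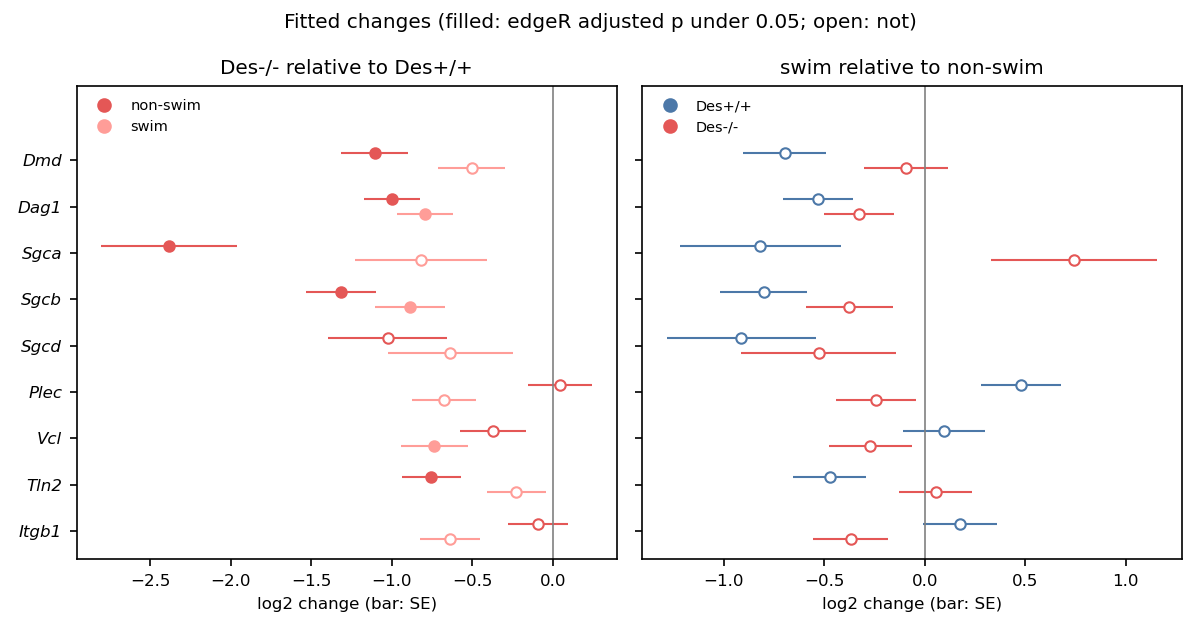
Fitted log2 change of each of the 9 genes with its SE (bar), from the edgeR model of 12 libraries. The left panel compares genotypes without and after swimming and the right panel swimming within each genotype. Filled points passed at an adjusted p under 0.05: 5 genes without swimming, 3 after it and 0 in the right panel.

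In the swim libraries 0 of the 14 sarcomere markers passed in edgeR (median -0.56), 2 had an unadjusted p under 0.05, as had 30.5% of all genes, and 1 passed with DESeq2. Of the fibroblast markers 3 of 10 rose (median 1.10), and of the isolation response genes 6 of 10 (median 1.21). Hspa1a and Hspa1b of the latter list had changes the other way, of -1.62 and -1.94 (edgeR adjusted p 0.124 and 0.111). Of the 10 macrophage markers 0 passed (median 1.17), with 0 at an unadjusted p under 0.05 and 0 with DESeq2. Their part in the costamere changes was not tested here either.

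The effect of swimming was examined next, separately for each genotype. In Des+/+ libraries 0 of the 9 genes passed in edgeR, where 0.0912% of all genes passed. Of the 9, 6 had an unadjusted p under 0.05 in edgeR, as had 2697 or 20.5% of all genes. Sgcb went from 210.3 ± 19.5 to 120.7 ± 25.2 CPM (SD, n = 3; log2 change -0.80, SE 0.22, edgeR adjusted p 0.105) and Dmd from 114 ± 26.3 to 70.5 ± 2.84 CPM (-0.70, SE 0.21, edgeR adjusted p 0.121). Dag1 went from 546 ± 68.0 to 378 ± 43.5 CPM (-0.53, SE 0.17, edgeR adjusted p 0.139). Each of these 3 was without overlap between swim and non-swim libraries, as were 31.3% of all genes, and these were the 3 members called with DESeq2, which called 812 genes or 7.89% of those with an adjusted p. Sgcb alone was also called with edgeR when replicate 3 of both Des-/- groups was left out, at an adjusted p of 0.0478, in a fit that called 743 genes against 12 with all libraries.

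The other sarcoglycans and Tln2 had swim libraries below the non-swim ones as well, with changes of -0.91 for Sgcd, -0.82 for Sgca and -0.47 for Tln2, at edgeR adjusted p-values of 0.201, 0.270 and 0.183. The change of Tln2 was -0.20 once its highest library, Des+/+ non-swim replicate 2, was left out. Plec, Itgb1 and Vcl had fitted changes above 0, at 0.48, 0.18 and 0.10 (edgeR adjusted p 0.207, 0.621 and 0.832), and their swim and non-swim libraries overlapped. The sarcomere marker sum in Des+/+ libraries was also lower after swimming, as given above, with a median log2 change of -0.73 over its 14 genes. Its part in these values was not tested.

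In Des-/- libraries 0 of the 9 genes passed for swimming in edgeR, 0 had an unadjusted p under 0.05 and 0 passed with DESeq2. Of all genes 0.0228% passed in edgeR, 16.7% had an unadjusted p under 0.05 and 2.65% passed with DESeq2. Dmd was at 53.0 ± 16.4 CPM without and 49.7 ± 1.69 CPM after swimming (SD, n = 3; log2 change -0.09, edgeR adjusted p 0.847). Of the 9, Sgca had the largest fitted change, from 21.2 ± 14.2 to 35.3 ± 5.19 CPM (0.74, SE 0.41, edgeR adjusted p 0.377). That value rested on single libraries of the Des-/- non-swim group: it was 0.36 with replicate 3 left out and 1.37 with replicate 2 left out. Dag1 and Itgb1 did not overlap between swim and non-swim libraries, which held for 19.4% of all genes, with changes of -0.33 and -0.37 (edgeR adjusted p 0.360 and 0.338).

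The difference between genotypes in the change with swimming was tested as an interaction term. For 0 of the 9 genes it passed in edgeR, as for 0.0% of all genes, and 0 passed with DESeq2, against 3.84% of all genes with an adjusted p there. At an unadjusted p under 0.05 there were 2 of the 9, beside 2148 or 16.3% of all genes: Sgca, with a difference in log2 change of 1.56 (SE 0.58, unadjusted p 0.0196, edgeR adjusted p 0.239), and Plec, with -0.72 (SE 0.28, unadjusted p 0.0253, edgeR adjusted p 0.250). For Sgca the 3 Des+/+ swim libraries lay below the 3 non-swim ones, while in Des-/- the mean was higher after swimming and the libraries overlapped. Calls that differ between the comparisons above are therefore not shown to differ between genotypes or swimming states.

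Of the set, 3 muscle genes have a more widely expressed relative, so the ratio within a library could be read without any scaling. Such a ratio still depends on the mix of cells in the library, and the part of cell mix was not tested. These are utrophin (Utrn) beside Dmd, ε-sarcoglycan (Sgce) beside Sgca and talin 1 (Tln1) beside Tln2. The relatives themselves did not pass between genotypes. Utrn was at 267 ± 24.5 CPM in Des+/+ and 258 ± 46.0 CPM in Des-/- non-swim libraries (SD, n = 3; log2 change -0.05, edgeR adjusted p 0.845), Sgce at 46.0 ± 7.73 and 57.9 ± 6.72 CPM (0.33, adjusted p 0.168) and Tln1 at 519 ± 19.9 and 678 ± 71.8 CPM (0.39, adjusted p 0.0769). After swimming their changes were -0.39, -0.23 and -0.18, at edgeR adjusted p-values of 0.125, 0.407 and 0.469.

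In Des+/+ non-swim libraries there were 2.04 to 2.68 Utrn counts per Dmd count, and in Des-/- non-swim libraries 3.95 to 6.27. With swimming the range was 3.92 to 5.05 in Des+/+ and 4.27 to 5.15 in Des-/- libraries. The Des+/+ non-swim libraries thus stood below the other 3 groups, which overlapped. The same held for Tln1 over Tln2, at 2.89 to 4.70 in Des+/+ non-swim, 5.47 to 7.33 in Des+/+ swim, 7.28 to 9.85 in Des-/- non-swim and 6.21 to 7.55 in Des-/- swim libraries. Sgce over Sgca was 0.262 to 0.620 in Des+/+ non-swim, 0.556 to 1.19 in Des+/+ swim, 1.44 to 8.19 in Des-/- non-swim and 0.902 to 1.52 in Des-/- swim libraries. The highest ratio, 8.19, was that of replicate 3 of the Des-/- non-swim group.

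Averaged over both swimming states, the log2 ratio was higher in Des-/- libraries by 1.76 for Sgce over Sgca, 0.59 for Utrn over Dmd and 0.57 for Tln1 over Tln2. The exact two-sided permutation p-values, with labels exchanged within swimming state, were 0.01, 0.02 and 0.045. Adjusted over 6 tests they were 0.06, 0.06 and 0.09 in this exact test, so none passed, and 0.005 was the smallest p these 400 arrangements allow. The genotype differences were 2.93, 1.06 and 1.10 without swimming and 0.58, 0.11 and 0.04 after it. The swimming differences were -0.25, 0.41 and 0.19, with exact adjusted p-values of 0.685, 0.112 and 0.534.

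**Figure D3:**
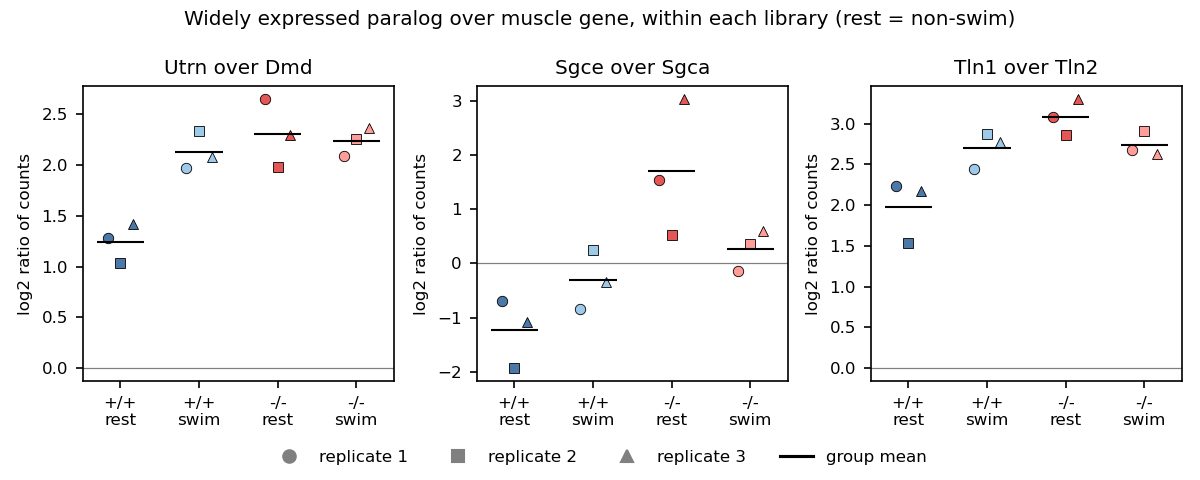
log2 ratio of the counts of a widely expressed relative to those of the muscle gene in each of the 12 libraries, with the mean of 3 libraries as a line and rest for non-swim. Sgce over Sgca runs from below 0 in the 3 Des+/+ non-swim libraries to above 0 in the 3 Des-/- non-swim libraries, and the means of both swim groups lie between.

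The other genes of the dystrophin-glycoprotein complex were taken as a list of 13, of which 12 were tested (Sgcz had at most 2 counts). Without swimming 5 fell and 1 rose, with a median log2 change of 0.07. Of all genes 32.0% passed there, and 18.0% passed and were lower. Dtna, α-dystrobrevin, a cytoplasmic partner of dystrophin, fell from 36.8 ± 9.20 to 10.3 ± 5.27 CPM (SD, n = 3; log2 change -1.84, SE 0.32, edgeR adjusted p 0.00204). Sntb2, the β2-syntrophin adaptor, rose from 66.9 ± 1.99 to 109.9 ± 15.8 CPM (0.72, SE 0.12, adjusted p 0.00184). After swimming 0 of the 12 passed in edgeR (median -0.36), 5 had an unadjusted p under 0.05 and 1 passed with DESeq2. The shares of all genes were 10.6%, 30.5% and 17.8%, here and for the lists below.

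The enzymes that build the laminin-binding sugars of dystroglycan formed a list of 12. Without swimming 7 fell and 0 rose, with a median log2 change of -0.56, where 18.0% of all genes passed and were lower. After swimming 0 of the 12 passed in edgeR (median -0.13), 3 had an unadjusted p under 0.05 and 0 passed with DESeq2.

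Of 19 other genes of integrin and talin-vinculin adhesion, 7 fell and 2 rose without swimming, with a median log2 change of 0.05. Of all genes 32.0% passed there, and 18.0% passed and were lower. Itga7, the α7 integrin subunit that pairs with β1 in muscle, fell from 314 ± 79.3 to 140.3 ± 27.3 CPM (SD, n = 3; log2 change -1.16, SE 0.21, edgeR adjusted p 0.00223), whereas Itgb1 itself did not pass. Sorbs2, a vinculin-binding adaptor of Z-discs, fell by 1.37 on the log2 scale (SE 0.21, adjusted p 0.00121) and Flnc, the muscle filamin, fell by 1.33 (SE 0.33, adjusted p 0.0115). Zyx, zyxin, a focal adhesion protein, and Ilk, integrin-linked kinase, rose by 0.71 (SE 0.23, adjusted p 0.0367) and 0.40 (SE 0.12, adjusted p 0.0225). After swimming Sorbs2 was the 1 of the 19 that passed (-0.83, SE 0.21, adjusted p 0.0298), and Itga7 was at 180.3 ± 17.4 and 169 ± 29.7 CPM (-0.10, adjusted p 0.777). Swimming in Des+/+ libraries raised 1 of the 19, Pxn, the focal adhesion adaptor paxillin, from 144 ± 14.0 to 268 ± 33.8 CPM (0.90, SE 0.13, adjusted p 0.0341).

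Of 11 genes of the membrane skeleton and of other cytoskeletal linkers, 4 fell and 0 rose without swimming, with a median log2 change of -0.12. Of all genes 32.0% passed there, and 18.0% passed and were lower. Sptb, β-spectrin, fell from 235 ± 100.7 to 45.4 ± 41.0 CPM (SD, n = 3; log2 change -2.38, SE 0.55, edgeR adjusted p 0.00802). After swimming 0 of the 11 passed in edgeR (median -0.25), 3 had an unadjusted p under 0.05 and 0 passed with DESeq2. Apart from Pxn, 0 genes of these 4 lists passed in edgeR for swimming in Des+/+, 0 for swimming in Des-/- and 0 for the interaction. At an unadjusted p under 0.05, Pxn included, there were 6, 8, 7 and 3 for swimming in Des+/+ in the order complex, glycosylation, adhesion and membrane skeleton, 5, 1, 2 and 0 for swimming in Des-/-, and 6, 5, 4 and 2 for the interaction, where 20.5%, 16.7% and 16.3% of all genes were under it. DESeq2 called 1, 6, 5 and 1 for the first, 2, 0, 0 and 0 for the second and 1, 0, 2 and 0 for the third, where it called 812 of 10297, 339 of 12816 and 328 of 8537 genes.

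**Figure D4:**
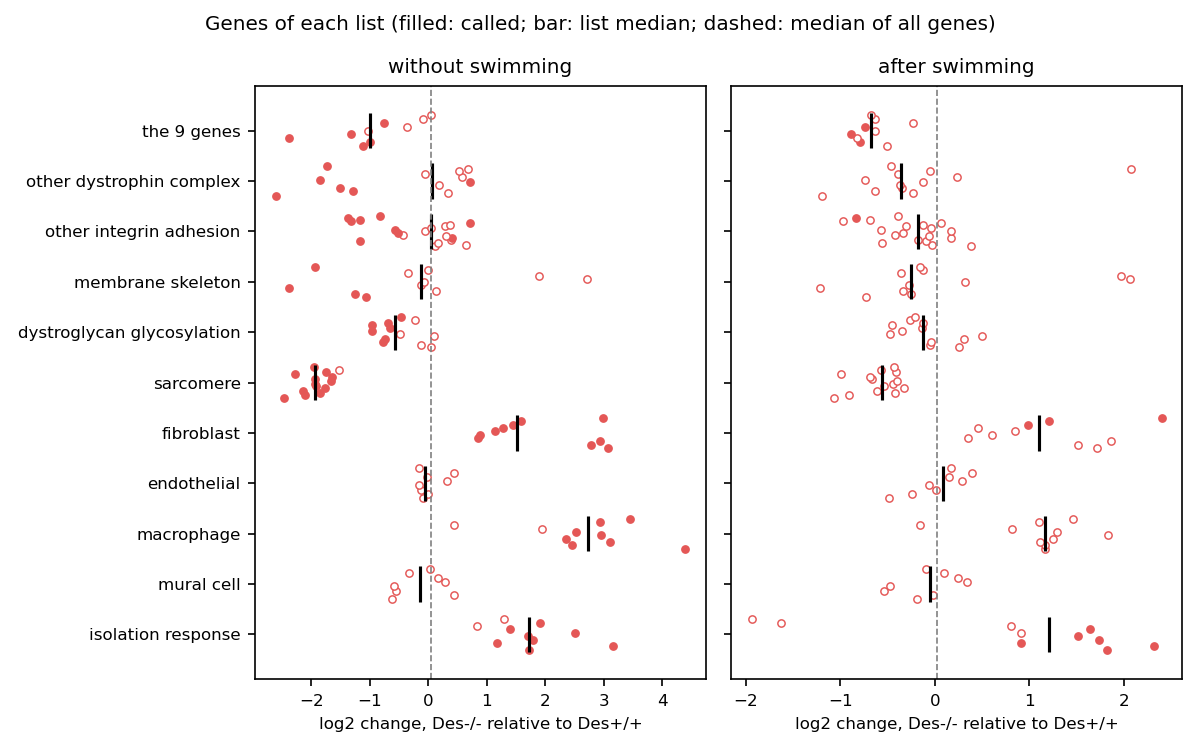
log2 change between genotypes of each gene in the 9 costamere genes, 4 lists of related genes and 6 lists of markers, without (left) and after swimming (right). Filled points passed at an adjusted p under 0.05, the short bar is the list median and the dashed line the median of all genes. The median of the 9 genes is at -0.998 on the left and -0.68 on the right, and that of the sarcomere markers at -1.93 and -0.56.

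Over the 12 libraries, the genes whose log2 CPM followed each member most closely were picked by Pearson's r as a description, since libraries share group, depth and cell mix. Sgca was followed by Fhl2 (r = 0.99), Rxrg (0.99) and Mrps35 (0.99), Dag1 by Pkia (0.99), Gpr157 (0.99) and Ubr3 (0.98), and Dmd by Fyco1 (0.98), Ubr3 (0.98) and Rnf14 (0.98). Sgcb was followed by Asph (0.99), Pex7 (0.99) and Camk2d (0.98), Sgcd by Capn7 (0.97), Lnpk (0.96) and Memo1 (0.96), and Tln2 by Vwa8 (0.97), Saraf (0.96) and Zc3h14 (0.96). Vcl was followed by Eif4e2 (0.96), Wapl (0.95) and Prps2 (0.92), Itgb1 by Zmpste24 (0.97), Atp13a3 (0.96) and Tm9sf3 (0.95), and Plec by Usp12 (0.87), Ahdc1 (0.86) and Psmd5 (0.85). Among the members, r was 0.99 between Dag1 and Sgcb, 0.96 between Dag1 and Dmd, 0.94 between Dmd and Sgcb and 0.87 between Vcl and Itgb1, and 0.17 between Sgca and Itgb1.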

How the data were processed

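Raw counts of single-end 100-base reads per gene were deposited for 12 libraries. The authors aligned reads to GRCm38 (mm10) and counted them with HTSeq in its reverse-strand mode, without normalisation, per the study's methods. The submitters' processing notes name HISAT2 2.2.1, SAMtools 1.13, HTSeq and DESeq2 1.40.2. The labels name a kit that does not mark strand and the methods a directional one. To test this, 41 cases were taken in which a gene shares exon bases with another on the other strand and would receive more than 3000 of its reads in a count blind to strand. In 7 of them the gene's whole count was below 1% of that figure. A count blind to strand could also assign reads in shared bases to neither gene. The check therefore does not by itself show that strands were told apart. Reads ambiguous between genes were 0.14 to 0.38% of uniquely aligned reads over the 12 libraries. Reads in no gene (34.0 to 64.5% of uniquely aligned reads) stayed out of library totals. Of 21493 genes, 21488 matched the GENCODE M21 annotation, which gave positions and exon lengths.

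Libraries were grouped by their labels. Counts were analysed with edgeR 4.0.16 in R 4.3.3 (filterByExpr, 13158 genes; TMM; 1 quasi-likelihood model of 4 group means, 8 residual degrees of freedom; Benjamini-Hochberg adjustment over all genes). CPM is the count relative to the TMM-scaled total (edgeR's CPM). The SE of a log2 change was taken from its F statistic. Ratios used counts plus 0.5 and exact permutation in Python 3.11.15 with scipy 1.17.1. Both procedures were run on simulated data. For the permutation test this was a draw with a difference and a draw without, a check of the code and not of its error rate. Settings were varied one at a time: scaling, low-count filter, threshold, DESeq2 1.42.0, the 6 libraries compared alone, a replicate block, and leaving out libraries. Same-numbered libraries of the Des-/- swim and non-swim groups deviated together (correlations 0.36, 0.32 and 0.60). Replicates 1 and 2 of these groups did so across numbers as well (0.30 and 0.29), so the numbers are not shown to pair the libraries. In the other comparisons same-numbered correlations were at most 0.13. The lowest chi-square per degree of freedom between replicates was 9.52, so none was a repeat of another. P-values measure the spread between libraries.

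The 9 genes and all lists were chosen with earlier results of these data known. Named were the 9 genes, Des, up to 2 called genes of the largest change in each direction per related list and comparison, Utrn, Sgce, Tln1 and Itga7, and for each member the 3 genes with the highest correlation of log2 CPM (prior count 2) over 12 libraries. Genes overlapping a member, and Sgcz, were named outside this rule. Some genes that the rule names are not reported here.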

Additional observations from a re-analysis of the deposited data

How the results depend on the processing

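The number of members that fell without swimming was 5 or 6 under every alternative run (other scalings and filters, DESeq2, an adjusted p under 0.10, the 6 libraries alone, the block, and each library left out). After swimming it was 3, but 5 with DESeq2, 5 at an adjusted p under 0.10 and 0 to 5 over fits that left out 1 library, and the cause was not tested. For swimming in Des+/+ it was 0, but 3 with DESeq2 and 1 without replicate 3 of both Des-/- groups, where the genes called in all rose from 12 to 812 and 743. With the replicate block it was 5 and 3 for genotype without and after swimming. It was 0 for swimming in either genotype and for the interaction, so the block changed no call of a member. Since the numbers are not shown to pair the libraries, the block does not test a paired effect of swimming. With upper-quartile scaling Itgb1 without swimming was at 0.0043 instead of -0.09. Over fits that left out 1 library, log2 changes crossed 0 for Plec without swimming (-0.048 to 0.20), Dmd for swimming in Des-/- (-0.23 to 0.19) and Sgcd for the interaction (-0.052 to 0.71). The genotype difference in log2 ratio was 0.50 to 0.67 for Utrn over Dmd and 1.43 to 2.05 for Sgce over Sgca over such fits, and both passed in the exact test when Des+/+ swim replicate 2 (0.64 and 1.90) or Des-/- swim replicate 1 (0.62 and 1.86) was left out. The swimming difference for Sgce over Sgca ranged from -0.55 to 0.079, above 0 only with Des-/- non-swim replicate 3 left out. Of the single-gene values under all alternatives, 891 kept their direction and side of the threshold, 20 newly passed, 19 no longer passed and 6 changed sign. Depth limits Sgcd most: its lowest library held 7 counts.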
